A study of Arabidopsis thaliana with 24 samples.

Results

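WRKY53 and ZAT10 are both genes of stress-related transcription regulators, and their transcript levels in Arabidopsis thaliana roots are described here across 4 genotypes and 2 times around a nitrate treatment. The probe sets were those of the ATH1 array that name 1 gene with either symbol. WRKY53 (AT4G23810) is read by probe set 254231_at, and ZAT10 (AT1G27730), which the array's annotation lists under its other name STZ, by 261648_at. These are 2 genes of the 13333 that have a probe set of their own here, and 2 of the 22714 probe sets tested.

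WRKY53 encodes a DNA-binding protein of the WRKY family that is best known as a regulator of leaf senescence and of defence. ZAT10 encodes a C2H2 zinc finger protein with an EAR repressor motif, known from salt, cold, osmotic and oxidative stress. Transcripts of both are known to accumulate quickly when plants meet stress, and both proteins are known targets of kinases of MAP kinase cascades.

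The mutant genotypes were nlp6nlp7, which combines both mutations, and the single mutants nlp7 and nlp6, each set against Col-0. NLP6 and NLP7 encode transcription factors of the NIN-like family, which control nitrate-responsive genes. The labels name the mutants by genotype only, and the alleles are not given in the sources used here. All seedlings, Col-0 included, had been kept for 9 days in liquid medium with 12.5 mM ammonium succinate as nitrogen source. Roots were harvested 35 min after the addition of 25 mM KNO3 or before it, at 0 min. With 3 biological repeats in every combination of genotype and time, there were 8 groups and 24 arrays in all, and each repeat pooled about 200 seedlings from 3 boxes. No group received potassium without nitrate, so elapsed time, handling, potassium and nitrate cannot be told apart in a difference between the times.

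Values are probe set intensities on the authors' linear scale, on which the trimmed mean of every array was 500.1 to 500.5, and the number of arrays limits their precision. Neither NLP6 nor NLP7 has a probe set that names it alone in the tables used, so the mutated genes themselves were not checked here by name. The 3 root markers measured (EXPA7, EXPA18 and NRT2.5) summed to 970 to 1729 per array, with none at the floor of 1. The 5 shoot markers measured summed to 403 to 809. Root and shoot markers are themselves transcripts, so their sums can move with expression as well as with the tissue sampled. RCA, the Rubisco activase gene, lay between 201 and 400, the antenna protein genes LHCB4.1 between 54 and 242, LHCB4.3 between 76 and 169 and LHCB4.2 between 3 and 67, and PRK, a Calvin cycle kinase, between 1 and 71. On the third principal component (8.89% of the variance over all probe sets), both arrays of nlp7 replicate 1 stood apart, at 37.3 for 35 min and 34.8 for 0 min, against -19.0 to 14.8 for the other arrays. The contrasts of WRKY53 and ZAT10 with nlp7 that are named here are given with and without this replicate.

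WRKY53 fell after nitrate in all 4 genotypes. In nlp6nlp7 its intensity was 146, 191 and 172 at 35 min, against 406, 443 and 452 at 0 min. The nlp7 arrays read 188, 234 and 218 at 35 min, against 311, 367 and 313 at 0 min. In nlp6 the values were 223, 149 and 143 at 35 min and 370, 403 and 416 at 0 min. Each of these mutants thus kept its 3 arrays at 35 min below its 3 arrays at 0 min. This order was shown by 15.9% of all probe sets in nlp6nlp7, 9.25% in nlp7 and 15% in nlp6. Col-0 roots gave 216, 264 and 177 at 35 min, against 404, 406 and 377 at 0 min. There too the 35 min arrays all lay below, as for 17.1% of probe sets. Taken over genotypes, the 12 arrays at 35 min (143 to 264) did not overlap with the 12 at 0 min (311 to 452), a separation with 35 min below that 1.35% of all probe sets showed. In bulk root RNA, fewer cells expressing a gene and less RNA of it per cell cannot be told apart.

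**Figure D1:**
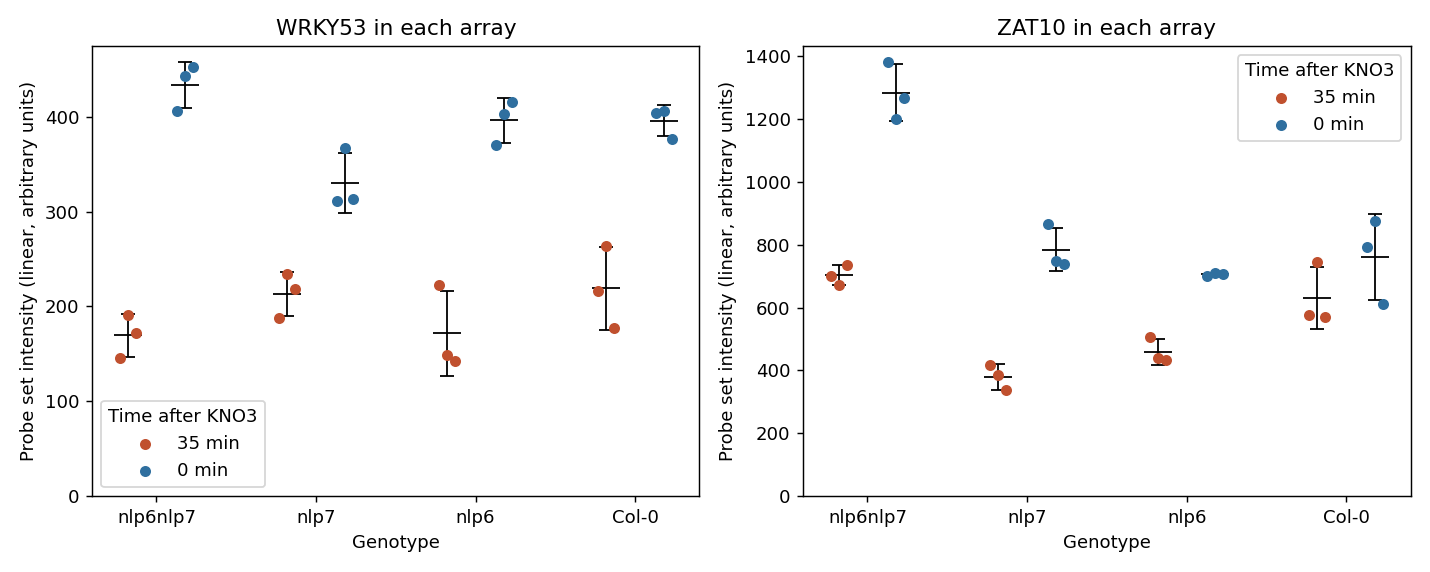
Intensity of WRKY53 (left) and ZAT10 (right) on a linear axis, by genotype and time. Points are single arrays and bars are means with SD of 3 arrays. For WRKY53 the 12 values at 35 min (143 to 264) lie below the 12 values at 0 min (311 to 452), and for ZAT10 the 3 nlp6nlp7 values at 0 min (1201 to 1380) lie above all others.

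The size of the WRKY53 decrease was estimated on the log2 scale of intensity plus 26 with limma, from a single model over all 24 arrays. It was 2.36-fold in nlp6nlp7 (log2 change -1.24 ± 0.14 SE, adjusted p = 5.1e-06) and 2.17-fold in nlp6 (-1.12 ± 0.14, adjusted p = 9.9e-06). In nlp7 the decrease was 1.49-fold (-0.58 ± 0.14, adjusted p = 0.018), and in Col-0 1.74-fold (-0.80 ± 0.14, adjusted p = 0.00048). Among all probe sets, 3% were called lower in nlp6nlp7, 6.15% in nlp6, 2.61% in nlp7 and 5.5% in Col-0, and 1.43% were called lower in all 4 genotypes, as WRKY53 was. The direction of calls over all probe sets depended on the scaling: with each array centred on its median, 64.9% of the calls in nlp6nlp7, 58.9% in nlp6 and 57.3% in Col-0 were increases, against 44.6%, 40.2% and 45.8% on the deposited scale. WRKY53 was called lower in all 4 genotypes on either scale. The nlp7 call is the least secure of the 4. It was lost without nlp7 replicate 1 at both times (-0.54, adjusted p = 0.13), without nlp7 replicate 2 at 0 min (-0.50, adjusted p = 0.094), without nlp7 replicate 1 at 35 min (-0.50, adjusted p = 0.091), and in a fit of only the arrays compared (adjusted p = 0.099).

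No difference of a mutant from Col-0 in the WRKY53 response passed the test. The responses of the mutants were not compared pair by pair with one another. Relative to Col-0, the log2 response was lower by estimate in nlp6nlp7 (-0.44 ± 0.20, 95% interval -0.86 to -0.02 before adjustment, limma adjusted p = 0.59). The difference was -0.32 ± 0.20 in nlp6 (-0.74 to 0.10, adjusted p = 0.99) and 0.22 ± 0.20 in nlp7 (-0.20 to 0.64, adjusted p = 0.95), or 0.26 without nlp7 replicate 1 (adjusted p = 0.95). The nlp6 and nlp7 intervals include 0, and that of nlp6nlp7 ends just below it. Response differences were called for 0.528% of probe sets in nlp6nlp7, 0.264% in nlp7 and 0.00881% in nlp6, so few genes of any kind passed this test. A limma F test of whether any of the 3 WRKY53 response differences from Col-0 departs from 0 gave an adjusted p of 0.48.

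**Figure D2:**
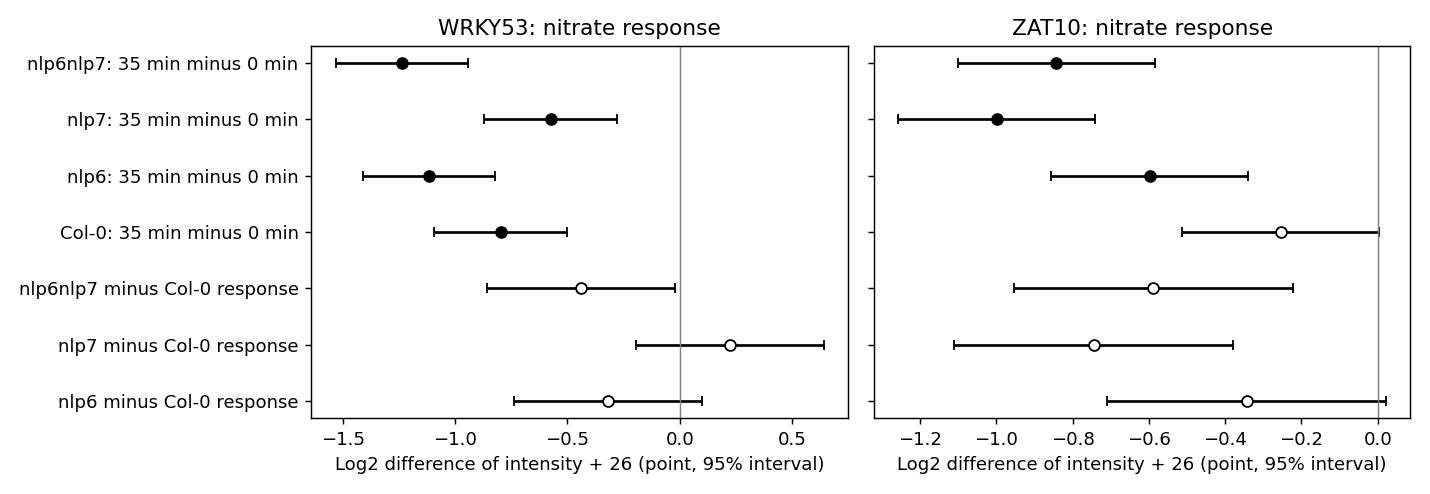
Log2 change of WRKY53 (left) and ZAT10 (right) at 35 min against 0 min in each genotype, with the difference of each mutant's response from that of Col-0. Points are limma estimates and bars 95% intervals before adjustment for multiple tests. WRKY53 runs between -1.24 and -0.58 and ZAT10 between -0.999 and -0.25.

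Within a time, no difference in WRKY53 level between genotypes passed the test. At 35 min nlp6nlp7 averaged 170 ± 22.6 (SD, n = 3), nlp7 213 ± 23.4, nlp6 172 ± 44.6 and Col-0 219 ± 43.6. The means at 0 min were 434 ± 24.4 in nlp6nlp7, 330 ± 31.8 in nlp7, 396 ± 23.7 in nlp6 and 396 ± 16.2 in Col-0. None of the 10 level contrasts between genotypes was called for WRKY53. At 35 min the share of all probe sets called in either direction was 6.22% for nlp6nlp7, 1.25% for nlp7 and 0.022% for nlp6 against Col-0, and 6.29% and 3.68% for nlp6nlp7 against nlp6 and nlp7. At 0 min these shares were 6.41%, 0.185%, 0.0881%, 8.29% and 4.7%, in the same order. The lowest unadjusted p belonged to nlp6nlp7 against nlp7 at 0 min (log2 difference 0.37 ± 0.14, limma adjusted p = 0.17), followed by nlp6 (-0.32 ± 0.14, adjusted p = 0.52) and nlp6nlp7 (-0.32 ± 0.14, adjusted p = 0.25) against Col-0 at 35 min. At 0 min all 3 nlp7 arrays (311 to 367) lay below all 3 Col-0 arrays (377 to 406), as 5.4% of probe sets did, without a call (-0.25 ± 0.14, adjusted p = 0.66). Without nlp7 replicate 1 these differences were 0.33 for nlp6nlp7 against nlp7 (adjusted p = 0.29) and -0.21 for nlp7 against Col-0 (adjusted p = 0.79). Ordered by mean, the 3 groups nlp6nlp7, nlp6 and Col-0 at 0 min overlapped in their arrays, nlp7 at 0 min followed apart from them, and the 4 groups at 35 min came last and overlapped with one another.

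ZAT10 was called in comparisons between genotypes as well as between times. In nlp6nlp7 it read 701, 672 and 736 at 35 min, against 1380, 1201 and 1268 at 0 min. The nlp7 arrays gave 418, 385 and 337 at 35 min, against 865, 749 and 740 at 0 min. In nlp6 the values were 505, 440 and 432 at 35 min and 702, 710 and 707 at 0 min. All 3 mutants had each 35 min array below each 0 min array, a pattern shown by 15.9% of probe sets in nlp6nlp7, 9.25% in nlp7 and 15% in nlp6. Col-0 read 577, 744 and 571 at 35 min, against 794, 876 and 610 at 0 min, and these ranges overlapped.

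ZAT10 fell after nitrate in each mutant, and its Col-0 response did not pass the test. The decrease was 1.79-fold in nlp6nlp7 (log2 change -0.84 ± 0.12 SE, limma adjusted p = 0.00011), 2.00-fold in nlp7 (-0.999 ± 0.12, adjusted p = 1.5e-05) and 1.51-fold in nlp6 (-0.60 ± 0.12, adjusted p = 0.0024). The share of all probe sets called lower in all 3 mutants was 1.53%. Without nlp7 replicate 1 the nlp7 value was -0.996 (adjusted p = 0.00032). In Col-0 the estimate was -0.25 ± 0.12 (95% interval -0.51 to 0.00, adjusted p = 0.26). Leaving out Col-0 replicate 3 at 0 min, whose ZAT10 intensity of 610 was the lowest of that group, gave -0.40 with an adjusted p of 0.046.

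A decrease that was called in the mutants and not in Col-0 does not show that the responses differ, and the differences themselves were not called. Against Col-0 the ZAT10 response was lower by estimate in nlp7 (-0.74 ± 0.17, 95% interval -1.11 to -0.38 before adjustment, limma adjusted p = 0.11), and without nlp7 replicate 1 the value was again -0.74 (adjusted p = 0.23). It differed by -0.59 ± 0.17 in nlp6nlp7 (-0.95 to -0.22, adjusted p = 0.23) and by -0.34 ± 0.17 in nlp6 (-0.71 to 0.02, adjusted p = 0.99). The 3 differences share the Col-0 arrays. The F test over all 3 had an adjusted p of 0.19, with 0.687% of probe sets called.

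Before nitrate, ZAT10 was highest in nlp6nlp7. The 3 nlp6nlp7 arrays at 0 min (1201 to 1380) lay above the 9 arrays of the other genotypes (610 to 876), as 4.88% of probe sets did. The means were 1283 ± 90.4 in nlp6nlp7, 785 ± 69.7 in nlp7, 706 ± 4.04 in nlp6 and 760 ± 136 in Col-0 (SD, n = 3 each). Relative to Col-0 the nlp6nlp7 level was 1.68-fold higher (log2 difference 0.75 ± 0.12, limma adjusted p = 0.00067). It was 1.78-fold higher than nlp6 (0.84 ± 0.12, adjusted p = 0.00020) and 1.62-fold higher than nlp7 (0.69 ± 0.12, adjusted p = 0.0015), or 0.76 without nlp7 replicate 1 (adjusted p = 0.0023). Of all probe sets, 3.92% were called higher in nlp6nlp7 than in Col-0, 5.31% higher than in nlp6, 3.1% higher than in nlp7, and 1.8% in all 3 comparisons, as ZAT10 was. With each array centred on its median, 34.2%, 34.7% and 49.2% of the calls against Col-0, nlp6 and nlp7 were increases, against 61.1%, 64.1% and 65.9% on the deposited scale, and ZAT10 was still higher than in Col-0 by 0.66 (adjusted p = 0.0018). Neither single mutant was called against Col-0 at 0 min, with 0.06 ± 0.12 for nlp7 (adjusted p = 0.94), or -0.013 without its replicate 1, and -0.09 ± 0.12 for nlp6 (adjusted p = 0.82). The summed shoot markers of the nlp6nlp7 arrays at 0 min, 475 to 579, lay within the range of the Col-0 arrays, 463 to 618. The summed root markers were 1442 to 1691 in nlp6nlp7 and 1276 to 1408 in Col-0 at 0 min, without overlap. At 0 min nlp7 had sums of 1264 to 1470 for root and 565 to 809 for shoot markers. In nlp6 these sums were 1405 to 1729 and 498 to 726. The part of the markers in these results was not tested.

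After nitrate the order was different, with ZAT10 lowest in the single mutants. At 35 min the means were 703 ± 32.0 in nlp6nlp7, 380 ± 40.7 in nlp7, 459 ± 40.04 in nlp6 and 631 ± 98.2 in Col-0 (SD, n = 3 each). ZAT10 in nlp7 fell below Col-0 by 1.61-fold (log2 difference -0.69 ± 0.12, limma adjusted p = 0.0062), where 0.872% of probe sets were called lower. Increases made up 30.04% of the calls in this comparison, and 18.01% with each array centred on its median, where the ZAT10 value was -0.74 (adjusted p = 0.0023). Without nlp7 replicate 1 this value was -0.76 (adjusted p = 0.0087), and without Col-0 replicate 2 at 35 min, the brightest of its group at 744, it was -0.57 and missed the threshold (adjusted p = 0.052), as it did in a fit of only the arrays compared (adjusted p = 0.17). The nlp6 arrays (432 to 505) all lay below the Col-0 arrays (571 to 744), as 6.2% of probe sets did, without a call (-0.43 ± 0.12, adjusted p = 0.28). Between nlp6nlp7 and Col-0 the difference was 0.16 ± 0.12 (95% interval -0.10 to 0.42, adjusted p = 0.58). In the comparison of nlp7 with Col-0 the summed shoot markers were 595 to 743 in nlp7 and 535 to 582 in Col-0, and their part in the result was not tested.

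**Figure D3:**
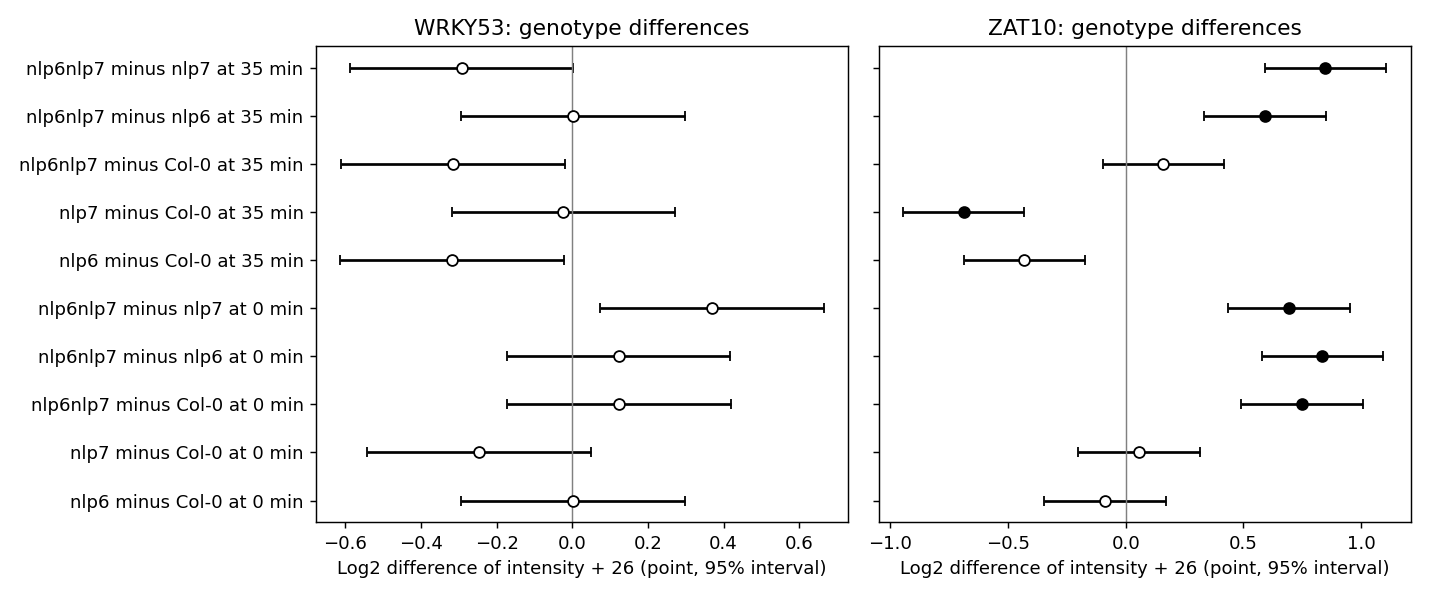
Log2 differences between genotypes for WRKY53 (left) and ZAT10 (right) at each time. Points are limma estimates and bars 95% intervals before adjustment. For ZAT10, nlp6nlp7 lies above both single mutants at both times (0.59 to 0.85) and above Col-0 at 0 min (0.75), and the WRKY53 contrasts run between -0.32 and 0.37.

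Against the single mutants, ZAT10 was higher in nlp6nlp7 at 35 min as well as at 0 min. At 35 min it was 1.80-fold higher than in nlp7 (log2 difference 0.85 ± 0.12, limma adjusted p = 0.00021) and 1.51-fold higher than in nlp6 (0.59 ± 0.12, adjusted p = 0.0050), where 2.47% and 3.83% of probe sets were called higher. Without nlp7 replicate 1 the difference from nlp7 was 0.92 (adjusted p = 0.00044). At 35 min the summed shoot markers were 403 to 539 in nlp6nlp7 and 595 to 743 in nlp7, and the summed root markers 1304 to 1511 in nlp6nlp7 and 995 to 1236 in nlp7, and their part in the result was not tested. In the comparison with nlp6, increases made up 60.99% of the calls, and 37.5% with each array centred on its median, where the ZAT10 value was 0.50 (adjusted p = 0.015). Calls in both comparisons at both times were made for 1.38% of probe sets. A further contrast, chosen after these values were seen, asked how far nlp6nlp7 departs from the sum of the single mutants' log2 differences from Col-0. For ZAT10 the departure was 1.28 ± 0.17 at 35 min (95% interval 0.91 to 1.64, adjusted p = 0.00047), where 1.36% of probe sets were called higher. At 0 min it was 0.78 ± 0.17 (0.41 to 1.14, adjusted p = 0.021), where 1.63% were called higher. Without nlp7 replicate 1 the departures were 1.35 at 35 min (adjusted p = 0.00076) and 0.85 at 0 min (adjusted p = 0.020). Increases made up 81.7% of these calls at 35 min and 79.8% at 0 min, and 71.3% and 65.4% with each array centred on its median. The 0 min call was lost in a fit of only the arrays compared (adjusted p = 0.078) and, in turn, without Col-0 replicate 1 (adjusted p = 0.066), Col-0 replicate 2 (adjusted p = 0.074), nlp7 replicate 2 (adjusted p = 0.053) or nlp6nlp7 replicate 1 (adjusted p = 0.064). WRKY53 departed by 0.02 ± 0.20 at 35 min (adjusted p = 0.98) and 0.37 ± 0.20 at 0 min (adjusted p = 0.44), or by -0.053 and 0.33 without nlp7 replicate 1.

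Ordered by mean, ZAT10 in nlp6nlp7 at 0 min stood apart at the top. The next 5 groups, nlp7, Col-0 and nlp6 at 0 min and then nlp6nlp7 and Col-0 at 35 min, each overlapped with a neighbour in the order. The nlp6 and nlp7 groups at 35 min followed, each apart from the group above it. The split of the variance over the 24 arrays differed between the genes. For WRKY53, 84.1% of it went with time, 1.41% with genotype, 6.61% with their interaction and 7.84% lay within groups. For ZAT10 these shares were 47.2%, 38.5%, 8.23% and 6.07%. The median probe set had 5.46%, 18.04%, 8.10% and 55.6%. Any difference among the 8 groups was called for both genes by the limma F test (adjusted p = 4.6e-07 for WRKY53 and 9.3e-08 for ZAT10), as for 24.2% of probe sets.

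Within a time the WRKY53 and ZAT10 levels showed no relation that passed a test. At 0 min the nlp6nlp7 arrays form a ZAT10 cluster of their own, so no pooled value over all 12 arrays is given for that time. Both times were therefore compared over the 9 arrays of nlp7, nlp6 and Col-0, a choice made after the values were seen. At 35 min Pearson's r over these 9 was 0.32 (exact permutation p = 0.41) and Spearman's rho 0.12 (exact permutation p = 0.78), with r = 0.25 over the 7 arrays left without the 2 farthest from the median. At 0 min r was -0.18 (exact permutation p = 0.63) and rho -0.07 (exact permutation p = 0.88), with r = 0.40 over 7 arrays. Adjusted over the 2 times, the p-values were 0.63 for r and 0.88 for rho at both. Over all 12 arrays at 35 min r was -0.03 (permutation p = 0.93) and rho -0.06 (permutation p = 0.85), with r = -0.47 without the 2 farthest. The sign of these correlations thus turned with the arrays left out. ZAT10 at 35 min lay apart by genotype, at 337 to 418 in nlp7, 432 to 505 in nlp6 and 571 to 744 in Col-0. The values at that time therefore pool groups of different level, and the permutations treated arrays of all genotypes as exchangeable.

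The genes most like each were sought by Pearson's r over the 24 arrays among 6037 probe sets that name 1 gene and are brighter than the median. These correlations share the arrays and the common shift between times, and the values of the genes they chose are given as a description with no test. The 8721 probe sets without a gene name and the 503 naming several genes were not searched, so closer ones among them would be missed. For WRKY53 the closest was GID1B, a gibberellin receptor gene (r = 0.92), followed by AT1G76360, AT4G27280, AT1G14780 and AT2G20560 (0.92 to 0.91). GID1B averaged 457 at 35 min, against 1041 at 0 min, in nlp6nlp7 (log2 change -1.15), and 582 against 920 in Col-0 (-0.66). For AT2G20560 the log2 change was -1.06 in nlp6nlp7 and -1.33 in Col-0.

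For ZAT10 the closest genes were AR781 (r = 0.91), AT1G05575 (0.89), AT3G20340 (0.89), AT1G21590 (0.87) and AT1G26270 (0.86). At 0 min AR781 averaged 1587 in nlp6nlp7 and 793 in Col-0 (log2 difference 0.98), and AT1G21590 averaged 578 in nlp6nlp7 and 280 in Col-0 (0.98). At 35 min AT1G21590 and AT1G26270 had log2 differences of 1.09 and 0.998 between nlp6nlp7 and Col-0, against 0.16 for ZAT10.

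**Figure D4:**
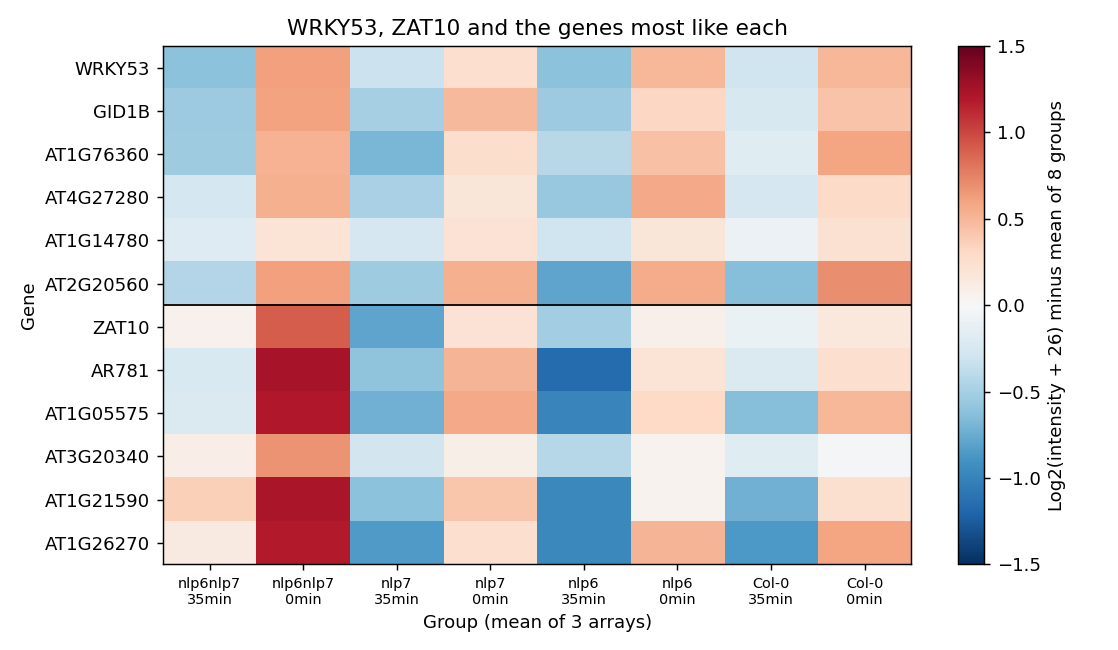
Group means of log2(intensity + 26) minus the mean over the 8 groups, for WRKY53 with its 5 most alike genes (upper block) and ZAT10 with its 5 (lower block). Columns are the 8 groups of genotype and time, and colour gives the difference. The WRKY53 block follows time, and the ZAT10 block is highest in nlp6nlp7 at 0 min.

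Of the WRKY family, 7 of 75 listed genes had a probe set naming 1 gene, so most of the family is not described here. After nitrate 1 member was called higher and 3 lower in nlp6nlp7 (median log2 change -0.29, against -0.05 over all probe sets). In nlp7, nlp6 and Col-0 1 was called higher and 2 lower, with medians of -0.22, -0.13 and -0.10 against -0.02, -0.08 and -0.04 over all probe sets. Over all probe sets, 2.41% were called higher in nlp6nlp7, 2.51% in nlp7, 4.13% in nlp6 and 4.65% in Col-0. The member that rose was WRKY22, known as a regulator in immune signalling. It averaged 301 ± 74.1 at 35 min, against 81.0 ± 9.17 at 0 min, in nlp6nlp7 (log2 change 1.59 ± 0.17, limma adjusted p = 1.6e-06), and 339 ± 53.9 against 81.3 ± 8.14 in Col-0 (1.76 ± 0.17, adjusted p = 2.1e-07). WRKY22 was also called higher in nlp7 (1.26) and nlp6 (1.52), so it rose in the same 4 genotypes in which WRKY53 fell. WRKY47 fell together with WRKY53 in every genotype, by 0.88 in nlp6nlp7, 0.55 in nlp7, 0.73 in nlp6 and 0.95 in Col-0 on the log2 scale (adjusted p = 0.00077, 0.043, 0.0028 and 0.00018). The WRKY47 call in nlp7 was lost without nlp7 replicate 1 at both times (-0.60, adjusted p = 0.098), without any 1 of 5 of the 6 nlp7 arrays, and under 4 of the 10 settings that kept every array, among them quantile normalization (-0.51, adjusted p = 0.051) and median centring (-0.50, adjusted p = 0.060). WRKY1 was called lower only in nlp6nlp7 (-0.29 ± 0.07, adjusted p = 0.025), and its response difference from Col-0 was not called (-0.18 ± 0.11, adjusted p = 0.72). Its call in nlp6nlp7 was lost without any 1 of 3 of the 6 nlp6nlp7 arrays and under 4 of these 10 settings, among them quantile normalization (-0.25, adjusted p = 0.066) and median centring (-0.19, adjusted p = 0.27). The other 3, WRKY6, WRKY20 and WRKY42, were called in no genotype.

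Of 21 symbols listed for the ZAT family, only ZAT10 had a probe set naming 1 gene. Several of the other symbols were not found in the gene table, so this count does not say how much of the family the array reads. Of the other lists kept for these genes, touch and calcium genes had 7 of 24 measured. CML42, a calmodulin-like calcium sensor gene, averaged 1536 ± 64.0 at 35 min, against 889 ± 41.7 at 0 min, in Col-0 (log2 change 0.77 ± 0.15, limma adjusted p = 0.0014). In nlp6 it rose as well (0.49, adjusted p = 0.044). That call was lost with a pseudocount of 3, in a fit of only the arrays compared and without any 1 of 4 of the 6 nlp6 arrays. CML42 also rose by estimate in nlp6nlp7 (0.27 to 0.38) and nlp7 (0.41 to 0.48) over the 10 settings that kept every array. A call was missed under 10 and 9 of these settings, in the same order. CML23 of the same family fell in Col-0 (-0.68 ± 0.19, adjusted p = 0.026), a call lost without any 1 of 4 of the 6 Col-0 arrays, under quantile normalization (-0.60, adjusted p = 0.061), under median centring (-0.61, adjusted p = 0.060) and in a fit of only the arrays compared (adjusted p = 0.082). In nlp6nlp7 and nlp7 none of the 7 was called by limma, while 2 and 3 had an unadjusted p under 0.05. Over all probe sets the share with an unadjusted p under 0.05 was 15.4% in nlp6nlp7, 14.1% in nlp7, 21.7% in nlp6 and 19.9% in Col-0. For abscisic acid, salt and cold genes 4 of 45 were measured, and LTI30, a dehydrin gene, was the one called, with 3164 ± 955 at 35 min and 1012 ± 57.6 at 0 min in Col-0 (1.58 ± 0.31, adjusted p = 0.0012). In the mutants LTI30 also rose by estimate, without a call in the main model. Over the 10 settings that kept every array it rose by 0.58 to 0.71 in nlp6nlp7, 0.54 to 0.61 in nlp7 and 0.86 to 0.996 in nlp6. A call was missed under 9, 10 and 5 of these settings, in the same order. Of the jasmonate list 2 of 34 were measured, and MYC3 fell in Col-0 (-0.41 ± 0.11, adjusted p = 0.024), a call lost without any 1 of 4 of the 6 Col-0 arrays, under quantile normalization (-0.35, adjusted p = 0.069), under median centring (-0.35, adjusted p = 0.091) and in a fit of only the arrays compared (adjusted p = 0.058). CML23 and MYC3 also fell by estimate in each mutant, without a call in any of the 10 settings that kept every array. No response difference of a mutant from Col-0 was called for the measured touch and calcium, abscisic acid, salt and cold, or jasmonate genes. For these lists too, a call in Col-0 and not in a mutant does not show that the responses differ. None of the 3 measured senescence genes (SAG29, SAG101 and WRKY6) was called by limma in any response, and 1 had an unadjusted p under 0.05, in nlp7. The 1 measured defence gene, PDF1.2, averaged 19.3 or less in the nlp6nlp7 and Col-0 groups and was called in no response. Early stress regulators, MAP kinases and oxidative stress genes had no member with a probe set naming 1 gene. Of the 22714 probe sets tested, 8721 carry no gene name here and 503 name several genes. Listed genes without a probe set of their own may therefore still be read by the array. Root markers were also summed beside the falls of WRKY53 and ZAT10 after nitrate. In nlp6nlp7 they gave 1304 to 1511 at 35 min and 1442 to 1691 at 0 min. The sums were 995 to 1236 against 1264 to 1470 in nlp7 and 1019 to 1454 against 1405 to 1729 in nlp6. Col-0 gave 970 to 1220 at 35 min and 1276 to 1408 at 0 min. Of the 3 root markers 1 was called lower in the Col-0 response, as 5.5% of all probe sets were, and none in the mutants. The part of the root markers in these results was not tested.

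The genes around ZAT10 in the reference order were read where they had a probe set of their own. The nearest of these lay 3 genes before and 4 genes after ZAT10, and the 10 on each side reached 20 genes before and 27 genes after it. Of these 20 genes none was called between nlp6nlp7 and Col-0 at 0 min, where 6.41% of all probe sets were called, and 1 had an unadjusted p under 0.05, as 20.4% of all probe sets did. Their log2 differences ran from -0.15 to 0.38 with a median of 0.11, against 0.75 for ZAT10. At 35 min none was called either, 1 had an unadjusted p under 0.05, as 17.3% of all probe sets did, and the median was -0.00 with a range of -0.63 to 0.36, against 0.16 for ZAT10. This set was added after the values of ZAT10 were seen.

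**Figure D5:**
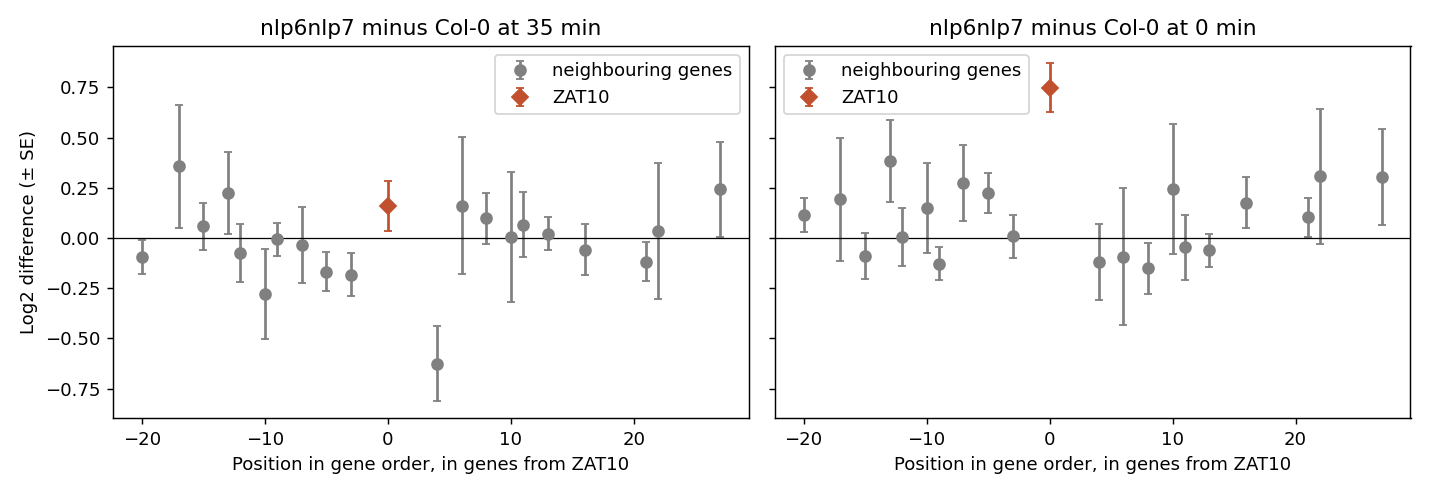
Log2 difference of nlp6nlp7 from Col-0 for ZAT10 (diamond) and the 20 nearest genes with a named probe set (circles), by position in the gene order, at each time. Bars are SE. At 0 min ZAT10 is at 0.75 and its neighbours lie between -0.15 and 0.38.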

How the data were processed

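Root RNA was hybridised to Affymetrix ATH1 arrays, per the labels' protocols. The deposited values are whole-number intensity values per probe set from 1 to 36178, scaled per array by the authors as the values show; the software that summarised probes is not named in the sources used. Of 22776 probe sets, 62 controls were left out, and none was filtered. Symbols came from the probe table and the TAIR10.1 gene table, and no coordinates are given because the probe table names no assembly. Intensities were taken to log2 with a pseudocount of 26 (their 20th percentile). A group-means model in limma 3.58.1 (R 4.3.3; 16 residual degrees of freedom) was fitted to 24 arrays, and two-sided contrasts were adjusted by Benjamini-Hochberg over 22714 probe sets, and an adjusted p below 0.05 made a call. The model was run on simulated data with independent noise in each array, which cannot show how it handles likeness between same-numbered arrays. Members, lists and the naming rule (the 2 genes, the measured members of the lists, and the 5 most alike genes each) were chosen with earlier results of these data known. The planned count of promoter motifs was not made here. Alternatives were quantile normalization, median centring, pseudocounts of 3 and 103, leaving out the dimmest 25%, trended or robust variances, only the arrays compared, a replicate block (over all arrays or within each genotype), and each array left out in turn.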

Additional observations from a re-analysis of the deposited data

How the results depend on the processing

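Over the settings that kept every array, 386 values of WRKY53 and ZAT10 kept their direction and their side of the threshold. The exceptions were 5 signs that turned near 0 and 3 lost calls. For WRKY53 in nlp6nlp7 against nlp6 at 35 min the sign turned under quantile normalization (-0.093), median centring (-0.093) and a pseudocount of 103 (-0.0019), and its departure from additivity at 35 min turned under quantile normalization (-0.019) and median centring (-0.014). In a fit of only the arrays compared, with fewer residual degrees of freedom, the same estimates missed the threshold for the WRKY53 response in nlp7 (-0.58), ZAT10 in nlp7 against Col-0 at 35 min (-0.69) and the ZAT10 departure at 0 min (0.78).

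Without nlp7 replicate 1 at both times, chosen after seeing the data, the WRKY53 response in nlp7 was -0.54, its difference of nlp7 from Col-0 at 35 min 0.055, the WRKY53 departure at 35 min -0.053, and ZAT10 in nlp7 against Col-0 at 0 min -0.013. With single arrays left out, the WRKY53 response in nlp7 ranged from -0.64 to -0.50, WRKY53 in nlp7 against Col-0 at 35 min from -0.15 to 0.11, in nlp6 against Col-0 at 0 min from -0.032 to 0.047, in nlp6nlp7 against nlp6 at 35 min from -0.10 to 0.18, and its departure at 35 min from -0.10 to 0.20. ZAT10 ranged from -0.40 to -0.15 for the Col-0 response, from -0.23 to 0.020 for nlp6 and from -0.089 to 0.16 for nlp7 against Col-0 at 0 min, from -0.76 to -0.57 for nlp7 against Col-0 at 35 min, and from 0.67 to 0.92 for the departure at 0 min.

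Within a genotype, same-numbered arrays tended to be alike across times. Their deviations from group means correlated from -0.0084 to 0.47 over 12 pairs, 11 positive and 6 over 0.1. Over 18 pairs of a mutant and Col-0, 6 were positive (-0.14 to 0.081). With replicate number as a block, no call of either gene changed, the ZAT10 difference of nlp6nlp7 from Col-0 at 0 min being 0.75 (limma adjusted p = 0.00052). With a block within each genotype, added after seeing the data, no response or response difference changed its call. ZAT10 gave -0.25 in Col-0 (adjusted p = 0.10) and -0.74 for the nlp7 response difference (adjusted p = 0.053), and 22 probe sets were called in that difference.

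Restricting the fit to the compared arrays left 408 probe sets called in the nlp7 response (1163 with all arrays), 1230 in the nlp6 response (2336), 25 in nlp7 against Col-0 at 35 min (283) and 1 at 0 min (42), 0 in nlp6 against Col-0 at 35 min (5) and at 0 min (20), 636 and 827 in nlp6nlp7 against nlp6 at 35 and 0 min (1428 and 1883), 386 and 241 in nlp6nlp7 against nlp7 (835 and 1067), 9 in the nlp7 response difference (60), and 247 and 234 in the departures (378 and 465). With single arrays left out, the counts at 35 and 0 min ran from 907 to 1148 (1412) and 804 to 1014 (1457) for nlp6nlp7, 114 to 261 and 8 to 119 for nlp7 and 1 to 62 and 2 to 49 for nlp6, each against Col-0, 868 to 1150 and 1067 to 1582 for nlp6nlp7 against nlp6, 556 to 731 and 671 to 1186 against nlp7, and 266 to 487 and 268 to 524 for the departures. Response differences gave 70 to 114 (120) in nlp6nlp7, 26 to 59 in nlp7 and 0 to 1 (2) in nlp6. Over the settings that kept every array, nlp6 against Col-0 ran from 0 to 17 at 35 min and 0 to 36 at 0 min. WRKY genes called in the nlp7 response were 1 in that restricted fit (3), and touch and calcium genes 1 in Col-0 (2), as under both other scalings.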
